A study of Mus musculus with 6 samples.

Results

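The genes described here are 10 components of the TGF-β pathway in mouse T cells, taken by name from the 56941 Ensembl identifiers of a gene count table after mapping to GENCODE symbols. They are the ligand gene Tgfb1, the receptor genes Tgfbr1 and Tgfbr2, the SMAD genes Smad2, Smad3 and Smad4, the inhibitor genes Smad7, Ski and Skil, and Klf10, an early target gene. All 10 were found, and all 10 were among the 13299 genes with enough counts to be tested. Spleen CD8+ T cells of B6 mice were activated for 3 days on plate-bound antibodies to CD3 and CD28 with rIL2 at 100 U/ml. The sample titles say CD8+ T cell, and the study's methods name total splenocytes or purified naive T cells as the start of such cultures. At 24 h of activation, 3 cultures received vehicle and 3 received S1P (sphingosine-1-phosphate, a lipid ligand of S1PR1 and related receptors) at 5 µM. No genetic change is given for either group, and no TGF-β treatment is among the labels. The labels call the samples biological replicates without saying whether each came from its own mouse, so p-values measure the spread between these samples. The study sequenced these samples to look for the mechanism by which S1P signalling alters T cell function. The paper reports pathways of TGF-β receptor and SMAD signalling as enriched after S1P. That enrichment over sets of changed genes is a different measure and was not run here. The comparison here gives the RNA level of TGF-β pathway components with and without S1P.

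In this pathway TGF-β, secreted bound to a latency peptide and released from it outside the cell, binds TGFBR2, which recruits and phosphorylates TGFBR1. The active receptor phosphorylates SMAD2 and SMAD3, which join SMAD4 and act in the nucleus on target genes. SMAD7 blocks and helps to degrade the receptor, SKI and SnoN (encoded by Skil) hold SMAD complexes in a repressed state, and SMAD7 and SKIL are themselves induced by the signal, which closes a feedback loop. Klf10, also known as TIEG1, encodes a zinc finger repressor first described as a TGF-β-inducible early gene. In T cells TGF-β restrains effector function and supports tissue residency and regulatory T cells.

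Total counts were 13636095 to 17089831 in the vehicle samples and 12048880 to 17384084 in the S1P samples. S1P replicate 2 had 7.80% of its counts on mitochondrial genes, against 4.10% to 4.93% in the other 5 samples, and it stood further from the other S1P samples (chi-square per gene 31.4 and 17.9) than they did from each other (5.97). Results that rest on this sample are given below with and without it. The RNA was not that of CD8+ T cells alone. Cd4 lay at 45.2 RPKM (reads scaled for exon length and library size) in vehicle and 48.6 in S1P, beside Cd8a at 61.0 and 38.3. The summed level of 8 B cell markers, all detected, was 1010 to 1230 CPM (counts scaled for library size) in vehicle and 1090 to 1190 in S1P. Among these markers Ms4a1 was lower (log2 fold change -0.39, edgeR adjusted p = 0.00889) and Ebf1 was higher (0.60, adjusted p = 0.00235). Cd8a (log2 fold change -0.67, edgeR adjusted p = 0.000243) and Cd8b1 (-0.55, adjusted p = 0.00767) were lower after S1P, and the CD4 lineage genes Zbtb7b (0.37, adjusted p = 0.00886) and Cd40lg (0.50, adjusted p = 0.0134) were higher. The part of cell composition in the results below was not tested.

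Of the 10 genes, Klf10 rose and Smad3 fell after S1P. Both passed the pair of thresholds used throughout, 0.05 for the adjusted p of edgeR's quasi-likelihood test and 0.3, in either direction, for the log2 fold change. This is 2 of 10 genes (20%), and 23.1% of all tested genes passed the same thresholds, 12.7% higher and 10.4% lower. Tgfbr2 and Skil passed the adjusted p but not the fold, which made 4 of 10 past the adjusted p alone, where 28.5% of all genes passed. The S1P and vehicle values did not overlap for 6 of 10 genes, Tgfbr2, Smad4, Skil and Klf10 with every S1P sample above and Tgfbr1 and Smad3 with every S1P sample below, and 45.6% of all tested genes had such groups. The median log2 fold change over the 10 genes was 0.12, and over all tested genes 0.01. The share past both thresholds was thus near the background, and with 10 genes a single gene moves a share by 10%.

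**Figure D1:**
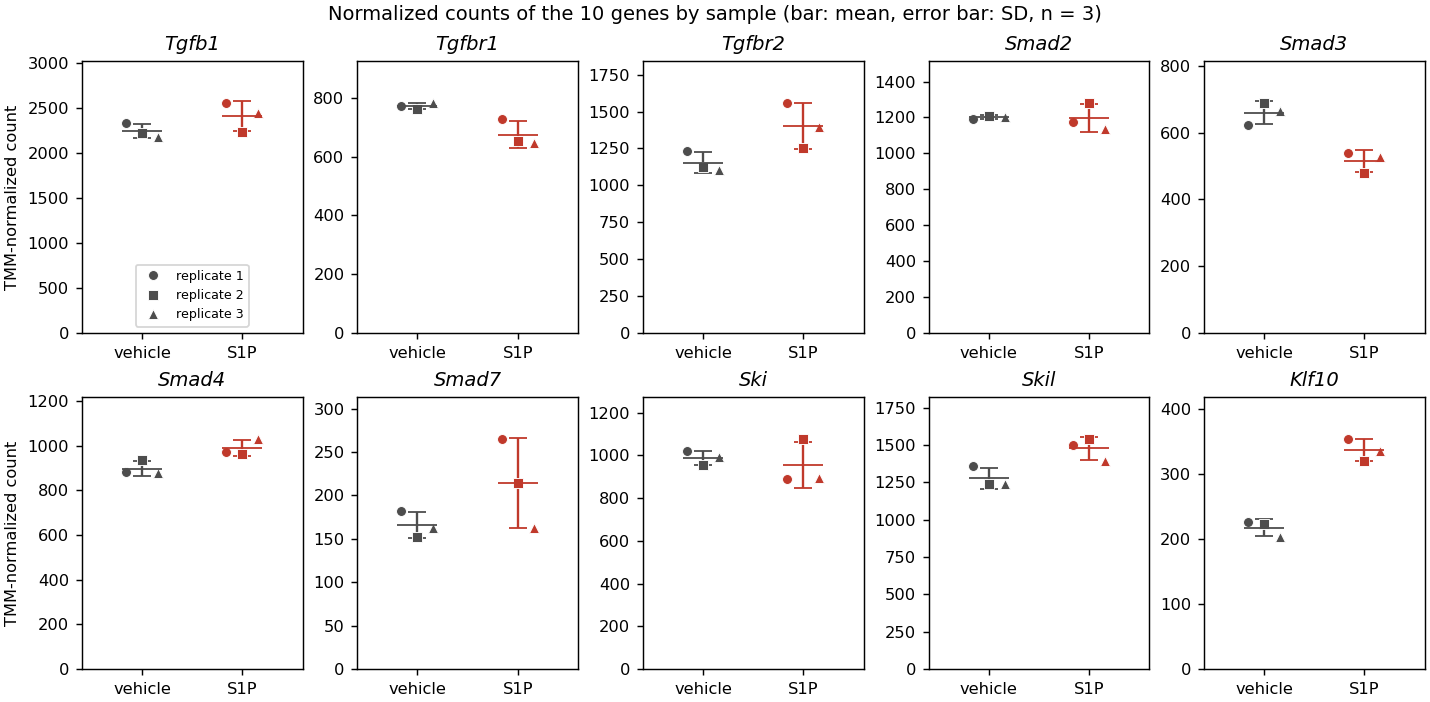
TMM-normalized counts (vertical axis, from 0) of the 10 genes in the 3 vehicle and 3 S1P samples. Points are samples, with the marker giving the replicate number, the long bar is the group mean and the error bar the SD. The S1P samples of Klf10 lie at 320.8 to 355.0 and all vehicle samples at or below 226.9, and those of Smad3 lie at 478.6 to 540.8 with all vehicle samples at or above 624.6.

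The promoter stretches of the gene that fell and of the receptor gene with every S1P sample below vehicle are shown first, as the regulatory sequence in front of the transcripts measured here. They are the 250 bases before the start of the canonical GENCODE transcript on GRCm39, and no annotated exon overlaps either of them. Each is written in lower case from its 5′ to its 3′ end, the last base lying next to the start site, and capitals mark the only match to the searched motifs, GGCGCC in Tgfbr1 at -145 to -140.
Smad3 (chr9:63665477-63665726, minus strand): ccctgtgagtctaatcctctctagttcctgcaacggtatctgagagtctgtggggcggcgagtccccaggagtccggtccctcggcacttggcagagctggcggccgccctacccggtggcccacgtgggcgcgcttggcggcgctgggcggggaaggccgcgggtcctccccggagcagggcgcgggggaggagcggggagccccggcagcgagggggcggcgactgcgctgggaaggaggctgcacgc
Tgfbr1 (chr4:47352884-47353133, plus strand): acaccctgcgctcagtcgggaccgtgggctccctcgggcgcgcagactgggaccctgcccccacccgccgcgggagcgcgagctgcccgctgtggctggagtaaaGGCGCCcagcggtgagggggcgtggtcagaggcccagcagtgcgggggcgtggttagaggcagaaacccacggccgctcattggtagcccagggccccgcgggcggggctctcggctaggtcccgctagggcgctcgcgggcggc
The motifs were searched on both strands in the 250 bases before the start of 21770 protein-coding genes. The SMAD palindrome GTCTAGAC was present in 0.239% of these windows, the CAGA box core CAGACA in 15.6%, the GC-rich SMAD element GGCGCC in 9.31% and the AP-1 letters TGANTCA in 6.17%. The RefSeq promoter table used here lists 5 of the 10 genes, and only those 5 were searched (Tgfb1, Tgfbr1, Tgfbr2, Smad3 and Ski). Besides the match in Tgfbr1, Tgfbr2 held CAGACA at -201 to -196, in a stretch that lies within annotated exon sequence, and Tgfb1, Smad3 and Ski held none of the 4 motifs in this window. A match or its absence describes letters in a short window and not binding.

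Tgfb1 (ENSMUSG00000002603, chr7:25386390-25404506, plus strand) encodes the TGF-β1 precursor, the main TGF-β of lymphocytes. It had normalized counts of 2327, 2225 and 2173 in vehicle and 2558, 2227 and 2441 in S1P. The groups overlapped, since S1P replicate 2 lay within the vehicle range. The means were 2241 ± 78.1 and 2409 ± 167 (SD, n = 3 each), and the log2 fold change of 0.10 (SE 0.07, 95% interval -0.05 to 0.26) did not pass the test (edgeR adjusted p = 0.295). Without S1P replicate 2 it was 0.16 (adjusted p = 0.0490, 0.049 to 0.614 over the alternatives) and without S1P replicate 1 it was 0.0576 (adjusted p = 0.592), under the fold threshold in both fits. In a culture of several cell types, fewer cells of a type and less RNA per cell cannot be told apart, for this gene and for those that follow.

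Neither gene of the receptor pair passed both thresholds. Tgfbr2 (ENSMUSG00000032440, chr9:115913361-116004800, minus strand) encodes the receptor that binds the ligand. Its normalized counts were 1234, 1121 and 1105 in vehicle and 1561, 1250 and 1394 in S1P, with every S1P sample above every vehicle sample, if narrowly for S1P replicate 2. The means were 1153 ± 70.2 and 1402 ± 156 (SD, n = 3 each), and the log2 fold change was 0.28 (SE 0.09, 95% interval 0.09 to 0.47, edgeR adjusted p = 0.0306), just under the fold threshold of 0.3. Without S1P replicate 2 the log2 fold change was 0.36 (adjusted p = 0.00172, with a range of 0.00172 to 0.129 over the alternatives), and the gene then passed both thresholds, as it did without vehicle replicate 1 (0.33, adjusted p = 0.0487). When any of the other 4 samples was left out the adjusted p rose above 0.05 (0.0901 to 0.129), and without S1P replicate 1 the log2 fold change was 0.196. An opposite-strand gene covers 5.04% of its exon bases, and the strand setting of the counting is not given in the sources used here.

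Tgfbr1 (ENSMUSG00000007613, chr4:47353134-47414931, plus strand) encodes the receptor kinase that phosphorylates SMAD2 and SMAD3. It had normalized counts of 772.4, 764.3 and 784.6 in vehicle and 727.4, 653.2 and 645.7 in S1P. All 3 S1P samples were below the vehicle samples. The means were 773.8 ± 10.2 and 675.4 ± 45.1 (SD, n = 3 each), and the log2 fold change of -0.19 (SE 0.07, 95% interval -0.36 to -0.03) missed the adjusted p (edgeR, 0.0738) and the fold threshold. As a level per exon length, Tgfbr2 exceeded Tgfbr1 by a ratio of 1.2, 1.1 and 1.06 in vehicle and of 1.62, 1.44 and 1.63 in S1P. The ratio averaged 1.12 ± 0.0729 in vehicle and 1.56 ± 0.104 in S1P, without overlap, S1P replicate 2 included. With the longest transcript as the length, Tgfbr2 did not exceed Tgfbr1 in every vehicle sample. A change of length scales the ratio alike in all samples, so the separation of the groups does not depend on it. The ratio was formed with the values of both genes known and was not tested.

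Among the SMADs that carry the signal, Smad3 fell while Smad2 and Smad4 did not pass the test. Smad3 (ENSMUSG00000032402, chr9:63554049-63665476, minus strand) encodes a receptor-activated SMAD that binds DNA directly. Its normalized counts were 624.6, 690.8 and 666.2 in vehicle and 540.8, 478.6 and 528.8 in S1P, so that the highest S1P sample lay below the lowest vehicle sample. The means were 660.5 ± 33.5 and 516.1 ± 33.0 (SD, n = 3 each), and the log2 fold change was -0.35 (SE 0.08, 95% interval -0.53 to -0.17, edgeR adjusted p = 0.008), or 0.784 of the vehicle level. Without S1P replicate 2 it was -0.30 (adjusted p = 0.00849, with a range of 0.00344 to 0.040 over the alternatives), still past both thresholds. With an offset for GC content the log2 fold change was -0.29, just inside the fold threshold, so that the call was lost while the adjusted p stayed at 0.0134.

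Smad2 (ENSMUSG00000024563, chr18:76374327-76445180, plus strand) encodes the other SMAD phosphorylated by this receptor. It had normalized counts of 1192, 1210 and 1205 in vehicle and 1174, 1283 and 1133 in S1P, with the S1P samples on both sides of the vehicle samples. The means were 1202 ± 9.16 and 1197 ± 77.6 (SD, n = 3 each), with a log2 fold change of -0.01, a 95% interval of -0.16 to 0.14 and an edgeR adjusted p of 0.947. The interval excludes a change of 0.3 in either direction. The Smad3 to Smad2 ratio of levels per length was 1.02, 1.11 and 1.07 in vehicle and 0.894, 0.724 and 0.906 in S1P. Smad3 thus lay above Smad2 in every vehicle sample and below it in every S1P sample (means 1.07 ± 0.0462 and 0.842 ± 0.102, not tested). With the longest transcript as the length the order of the vehicle means was turned (Smad2 at rank 7, Smad3 at rank 8), though not the order in every vehicle sample.

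Smad4 (ENSMUSG00000024515, chr18:73769343-73836915, minus strand) encodes the common partner of the activated SMADs. Its normalized counts were 880.3, 935.2 and 878.5 in vehicle and 972.9, 965.0 and 1032 in S1P, each S1P sample above each vehicle sample. The difference was small, with means of 898.0 ± 32.2 and 990.0 ± 36.8 (SD, n = 3 each) and a log2 fold change of 0.14 (SE 0.07, 95% interval -0.01 to 0.29, edgeR adjusted p = 0.147). It passed neither threshold in any of 17 fits, with log2 fold changes of 0.10 to 0.17.

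None of the inhibitor genes Smad7, Skil and Ski passed both thresholds. Smad7 (ENSMUSG00000025880, chr18:75500374-75529006, plus strand) encodes the inhibitory SMAD of this receptor. Its normalized counts were 181.8, 152.4 and 162.0 in vehicle and 265.4, 214.7 and 162.0 in S1P, with S1P replicate 3 at the middle vehicle value and the other S1P samples above all vehicle samples. The spread was larger than for any other of the 10 genes (coefficient of variation 24.2% in S1P and 9.06% in vehicle). The means were 165.4 ± 15.0 and 214.0 ± 51.7 (SD, n = 3 each), and the log2 fold change of 0.38 (SE 0.16, 95% interval 0.02 to 0.74) passed the fold but not the adjusted p (edgeR, 0.103). Leaving out S1P replicate 1, the highest sample, made it 0.18 (adjusted p = 0.411), leaving out S1P replicate 3 made it 0.54 (adjusted p = 0.0270) and leaving out S1P replicate 2 made it 0.39, again not past the adjusted p, which ran from 0.027 to 0.411 over the alternatives.

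Skil (ENSMUSG00000027660, chr3:31148816-31176740, plus strand) encodes SnoN, a nuclear co-repressor of SMAD complexes. It had normalized counts of 1358, 1238 and 1238 in vehicle and 1501, 1543 and 1393 in S1P, all S1P samples above the vehicle samples. The means were 1278 ± 69.4 and 1479 ± 77.3 (SD, n = 3 each), with a log2 fold change of 0.21 (SE 0.07, 95% interval 0.06 to 0.37, edgeR adjusted p = 0.0447). The adjusted p ranged from 0.0295 to 0.220 over the alternatives, and it was 0.0738 in DESeq2, 0.0495 without S1P replicate 2 and above 0.05 when any other sample was left out. With an offset for GC content the log2 fold change fell to 0.129 (edgeR adjusted p = 0.186).

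Ski (ENSMUSG00000029050, chr4:155238532-155307543, minus strand) encodes the related co-repressor SKI. Its normalized counts were 1019, 955.7 and 994.1 in vehicle and 889.9, 1079 and 894.5 in S1P. S1P replicate 2, the sample with the most mitochondrial counts, was the highest of all 6, and the other S1P samples were the lowest. The log2 fold change was -0.06 (SE 0.08, 95% interval -0.24 to 0.13, edgeR adjusted p = 0.660) from means of 989.5 ± 31.8 and 954.4 ± 108 (SD, n = 3 each), and -0.15 (adjusted p = 0.0932) without S1P replicate 2. The Ski to Skil ratio of levels per length was 1.25, 1.29 and 1.34 in vehicle and 0.989, 1.17 and 1.07 in S1P, lower in every S1P sample (means 1.29 ± 0.0443 and 1.08 ± 0.0887, not tested). The GC content of the exons was 58.2% for Ski and 41.5% for Skil, and the ratio carries no offset for it. With the GC offset the log2 fold changes were 0.0225 for Ski and 0.129 for Skil, which lie closer together than without it (-0.06 and 0.21).

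Klf10 (ENSMUSG00000037465, chr15:38291703-38300959, minus strand) showed the largest change of the 10 genes. Its normalized counts were 226.9, 223.8 and 202.8 in vehicle and 355.0, 320.8 and 335.6 in S1P, and the lowest S1P sample lay well above the highest vehicle sample. The means were 217.8 ± 13.1 and 337.1 ± 17.1 (SD, n = 3 each), a 1.55-fold rise (log2 fold change 0.63, SE 0.10, 95% interval 0.42 to 0.84, edgeR adjusted p = 0.000756). It stayed past both thresholds in all 17 fits, with log2 fold changes of 0.58 to 0.67, and without S1P replicate 2 it was 0.67 (adjusted p = 0.000208, with a range of 2.93e-05 to 0.00739 over the alternatives). The study itself picked Klf10 on these samples, so its rise is not independent evidence of a direction for the pathway.

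**Figure D2:**
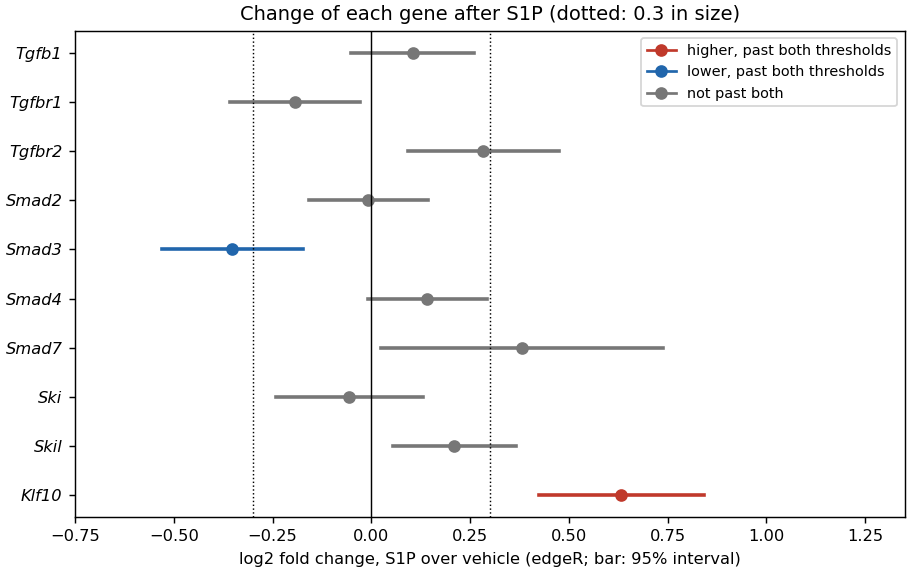
Log2 fold change of S1P over vehicle (horizontal axis) with its 95% interval from edgeR for each of the 10 genes. Dotted lines mark 0.3 in either direction, and only Klf10 (0.63) and Smad3 (-0.35) are past both thresholds.

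Carriers and inhibitors were also set against each other within each sample. The carriers were Tgfb1, both receptors and Smad2, Smad3 and Smad4. The other set held the inhibitors Smad7, Ski and Skil and also Klf10, which is an early target gene and not one of the inhibitors. The mean log2 CPM of the 6 carriers was 6.17 ± 0.0147 in vehicle and 6.17 ± 0.0616 in S1P (SD, n = 3 each), with overlap. That of the inhibitors with Klf10 was 4.98 ± 0.0716 and 5.26 ± 0.120, with every S1P sample above every vehicle sample. Carriers minus inhibitors with Klf10 was 1.12, 1.25 and 1.22 in vehicle and 0.885, 0.7955 and 1.04 in S1P. The groups were again apart, with a mean difference of -0.29. With Klf10 left out the difference was -0.17, and S1P replicate 3 at 0.8386 lay within the vehicle values of 0.7496 to 0.9145, so that the separation rested on Klf10. These sums were formed with the single genes' values known and carry no test.

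The Smad3 to Smad7 ratio of levels per length was 2.81, 3.71 and 3.37 in vehicle and 1.67, 1.83 and 2.67 in S1P. Every S1P sample lay below every vehicle sample (means 3.30 ± 0.454 and 2.06 ± 0.541), S1P replicate 3 by the narrowest margin. With Smad2 added to Smad3 the ratio to Smad7 was 6.38 ± 0.748 in vehicle and 4.50 ± 1.05 in S1P, and the groups overlapped. Neither ratio was tested.

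**Figure D3:**
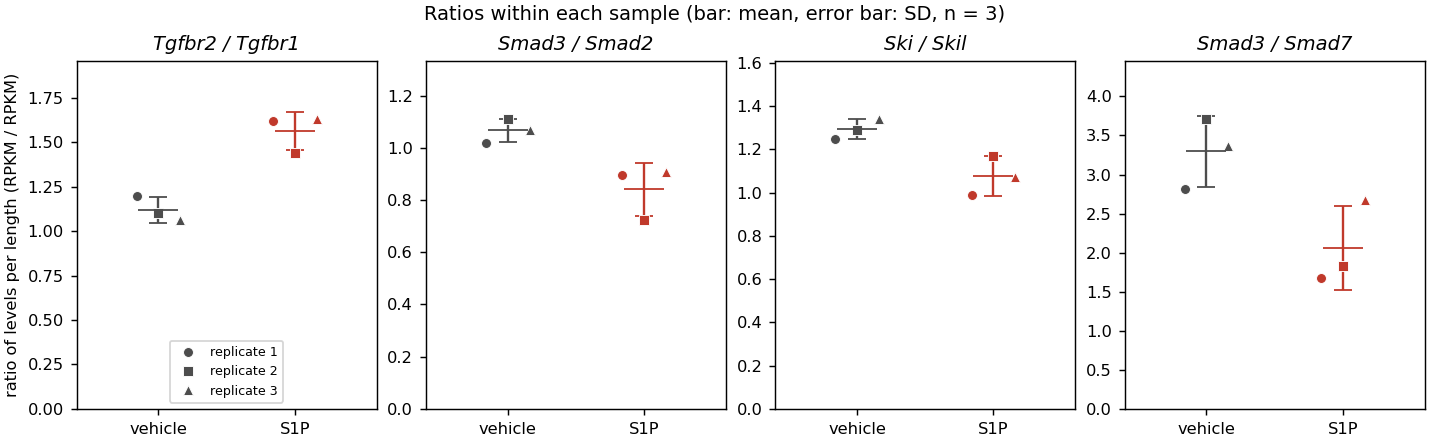
Ratios of levels per exon length (RPKM over RPKM, vertical axis, from 0) within each of the 6 samples, with points for samples, the long bar for the group mean and the error bar for the SD. In S1P the Tgfbr2 to Tgfbr1 ratio is higher (1.56 against 1.12), and the Smad3 to Smad2 (0.842 against 1.07), Ski to Skil (1.08 against 1.29) and Smad3 to Smad7 ratios (2.06 against 3.30) are lower. The ratios carry no offset for GC content.

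As levels per exon length, Tgfb1 stood above the other genes at 29.9 ± 1.04 RPKM in vehicle and 32.1 ± 2.24 in S1P. In vehicle it was followed by Ski (11.1 ± 0.356), Tgfbr2 (8.90 ± 0.542), Skil (8.58 ± 0.466), Smad4 (8.39 ± 0.301), Tgfbr1 (7.93 ± 0.105), Smad3 (7.73 ± 0.392) and Smad2 (7.25 ± 0.0553). Klf10 (3.52 ± 0.212) and Smad7 (2.36 ± 0.214) were the lowest. The sample ranges of the neighbours Tgfbr2 and Skil, Skil and Smad4, and Tgfbr1 and Smad3 overlapped, so that their order is not settled. In S1P the order was Tgfb1, Tgfbr2 (10.8 ± 1.2), Ski (10.7 ± 1.21), Skil (9.94 ± 0.520), Smad4 (9.25 ± 0.344), Smad2 (7.22 ± 0.468), Tgfbr1 (6.92 ± 0.462), Smad3 (6.04 ± 0.386), Klf10 (5.45 ± 0.277) and Smad7 (3.06 ± 0.739). There the neighbours Tgfbr2 and Ski, Ski and Skil, Skil and Smad4, Smad2 and Tgfbr1, and Smad3 and Klf10 overlapped. Klf10 and Smad3 were thus clearly apart in vehicle and overlapped in S1P. The middle of the order depended on the exon length used.

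**Figure D4:**
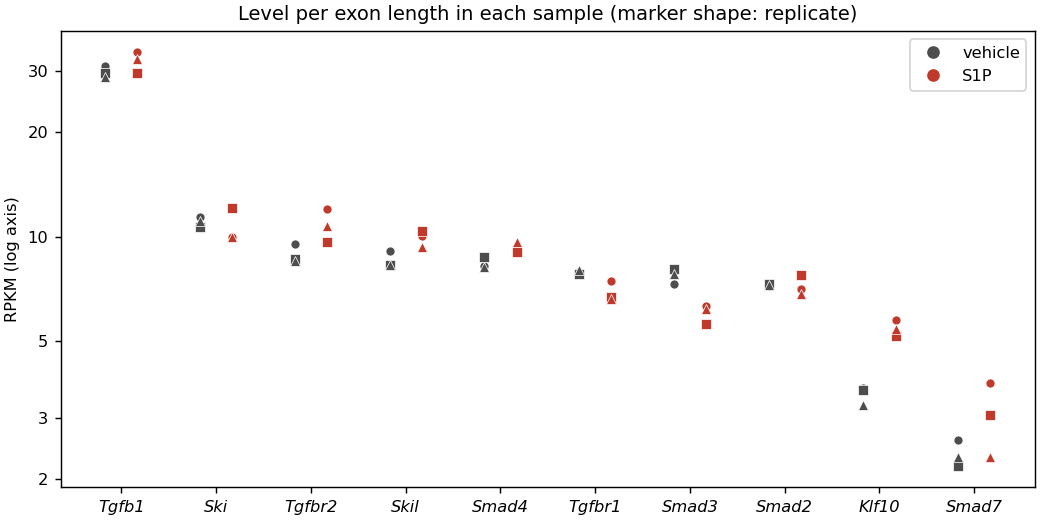
Level per exon length (RPKM, log axis) of the 10 genes in every sample, ordered by the vehicle mean, with vehicle in grey, S1P in red and the marker shape giving the replicate. Tgfb1 lies near 30 RPKM and Klf10 and Smad7 lie below all other genes in vehicle, while the genes in between have vehicle means of 7.25 to 11.1 RPKM.

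The genes whose course over the 6 samples was most like that of a called member were named by the root mean square difference of log2 CPM, each taken from its vehicle mean, among 11068 genes. For Smad3 they were Emc7 (0.0196), Xbp1 (0.0259) and Rpn1 (0.0289), and 650 genes lay within 0.1. For Klf10 they were Tmem170b (0.035), Arl5b (0.0376) and Dennd11 (0.0394), and 97 genes lay within 0.1. These are descriptions over 6 samples that share 2 groups.

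Around the 10 genes, 8 lists of other TGF-β pathway genes held 91 genes, of which 75 were tested, and 18 were higher and 6 lower after S1P (32.0%, against 23.1% of all genes). Their median log2 fold change was 0.12. On the 6 lists of pathway parts, leaving out those of genes that TGF-β raises or lowers, 13 rose and 2 fell among 54 tested genes (27.8%). Of 7 tested genes of ligands and activation, 4 rose and 1 fell. Tgfb3, a second TGF-β ligand, rose from 19.3 ± 1.97 to 63.4 ± 19.8 normalized counts (log2 fold change 1.74, SE 0.27, edgeR adjusted p = 0.000850), yet at 0.825 RPKM in S1P it stayed far below Tgfb1. Lrrc32, which encodes GARP, the surface anchor of latent TGF-β on regulatory T cells, had 107.9, 155.7 and 98.55 normalized counts in vehicle and 210.7, 164.3 and 188.6 in S1P (log2 fold change 0.66, adjusted p = 0.0144). Its call was lost without vehicle replicate 1 (adjusted p = 0.0693), vehicle replicate 3 (0.0724) or S1P replicate 3 (0.0517).

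The integrin genes Itgav and Itgb8, whose products together release active TGF-β from the latent complex, rose as well. Itgav went from 644.9 ± 27.8 to 888.9 ± 99.1 (log2 fold change 0.46, edgeR adjusted p = 0.00302). Itgb8 was low, at 34.3 ± 7.27 and 56.8 ± 9.81 (0.69, adjusted p = 0.0414), and kept its call in 7 of 17 fits, DESeq2 (0.0624) not among them. Leaving out any sample but S1P replicate 1 ended it, with adjusted p from 0.0685 without vehicle replicate 1 to 0.141 without vehicle replicate 2. Nrros, another anchor of latent TGF-β, fell from 484.9 ± 9.50 to 355.2 ± 59.3 (-0.44, adjusted p = 0.0128), and without vehicle replicate 3 its adjusted p was 0.0532. Markers of regulatory T cells summed to 31.9 to 38.8 CPM in vehicle and 45.2 to 50.3 in S1P, with Lrrc32 and Ikzf2 higher and Foxp3 not past the test (0.02, adjusted p = 0.938). Their part in the Lrrc32 result was not tested.

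Of 10 further tested receptor genes of the family, 4 rose and none fell (40% called, against 23.1% of all genes in either direction and 12.7% higher). Acvrl1, encoding the type I receptor ALK1, had 20.4, 27.0 and 10.4 normalized counts in vehicle and 146.0, 78.9 and 101.8 in S1P, the largest rise on any of the lists (log2 fold change 2.53, SE 0.31, edgeR adjusted p = 0.000208). Bmpr1a, a BMP type I receptor gene, rose from 90.8 ± 19.6 to 229.3 ± 12.4 (1.34, adjusted p = 0.000135). Acvr1b, which encodes an activin type I receptor, rose from 234.1 ± 9.87 to 329.7 ± 23.4 (0.50, adjusted p = 0.00294), and Bmpr2 was the other gene that rose (0.43, adjusted p = 0.00365). These 4 genes passed in all 17 fits. Acvrl1 at 0.978 RPKM and Bmpr1a at 2.01 RPKM in S1P remained below Tgfbr1 and Tgfbr2. Eng, also on this list, missed the adjusted p (-0.47, edgeR adjusted p = 0.122). Without S1P replicate 1 it was called lower (-0.749, adjusted p = 0.0215), which with Tgfbr3 made 2 lower receptor genes. Tgfbr3, the co-receptor betaglycan, was lower in every S1P sample (856.3 ± 35.7 and 695.0 ± 49.6) and missed the fold threshold narrowly (-0.30, adjusted p = 0.0142), passing it in 8 of 17 fits, among them those without vehicle replicate 2 (-0.33), S1P replicate 1 (-0.331) or S1P replicate 3 (-0.334).

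Downstream of the receptors, 15% to 20% of the tested genes on the lists of co-factors, turnover and the TAK1 branch were called, near the 23.1% of all genes. Smad1 and Smad5, the SMADs of BMP receptors, did not pass the test (log2 fold change 0.12, edgeR adjusted p = 0.405, and 0.08, adjusted p = 0.477), and the inhibitory SMAD gene Smad6 had at most 3.472 normalized counts in a sample and was not tested. Of 10 tested co-repressors and co-factors the zinc finger genes Zeb1 (0.45, adjusted p = 0.0012) and Zeb2 (0.54, adjusted p = 0.00324) rose. Tgif1, a SMAD co-repressor, had 452.9 ± 39.4 normalized counts in vehicle and 497.8 ± 30.8 in S1P (adjusted p = 0.273). Of 20 genes of receptor and SMAD turnover, 2 rose and 1 fell. Nedd4l, a ubiquitin ligase that acts on activated SMAD2 and SMAD3, rose from 239.2 ± 24.9 to 373.0 ± 16.4 (0.65, adjusted p = 0.000865), and Zfyve9, the SMAD anchor SARA, rose at low counts from 18.8 ± 8.45 to 40.9 ± 10.7 (1.10, adjusted p = 0.0299). The Zfyve9 call was lost without vehicle replicate 1 (adjusted p = 0.122), vehicle replicate 2 (0.101) or S1P replicate 3 (0.117). Tgfbrap1, a receptor-associated protein gene, fell by 0.31 (adjusted p = 0.0107, called in 11 of 17 fits, and not without vehicle replicate 3, adjusted p = 0.0593, or without S1P replicate 2, log2 fold change -0.285).

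Smurf2, the ligase that SMAD7 brings to the receptor, had 742.6 ± 53.6 and 844.1 ± 11.5 normalized counts (edgeR adjusted p = 0.0871). The membrane inhibitors Pmepa1 (345.5 ± 56.9 and 395.2 ± 24.8, adjusted p = 0.267) and Ldlrad4 (13.3 ± 4.14 and 15.8 ± 2.63, adjusted p = 0.618) did not pass either. Of the 5 genes of the TAK1 branch, the kinase route that runs beside the SMADs, only Tab2 rose (0.31, adjusted p = 0.0218), in 9 of 17 fits. It was not called without vehicle replicate 1, 2 or 3 (adjusted p = 0.054, 0.0869 and 0.0878) or without S1P replicate 2 (log2 fold change 0.201). Map3k7, which encodes TAK1 itself, had 2861, 2760 and 2859 normalized counts in vehicle and 2415, 2222 and 2471 in S1P, each S1P sample below vehicle (-0.25, adjusted p = 0.0145), and missed the fold threshold. With the GC offset, without and with the replicate block, it passed (-0.322 and -0.325) while Tab2 did not.

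**Figure D5:**
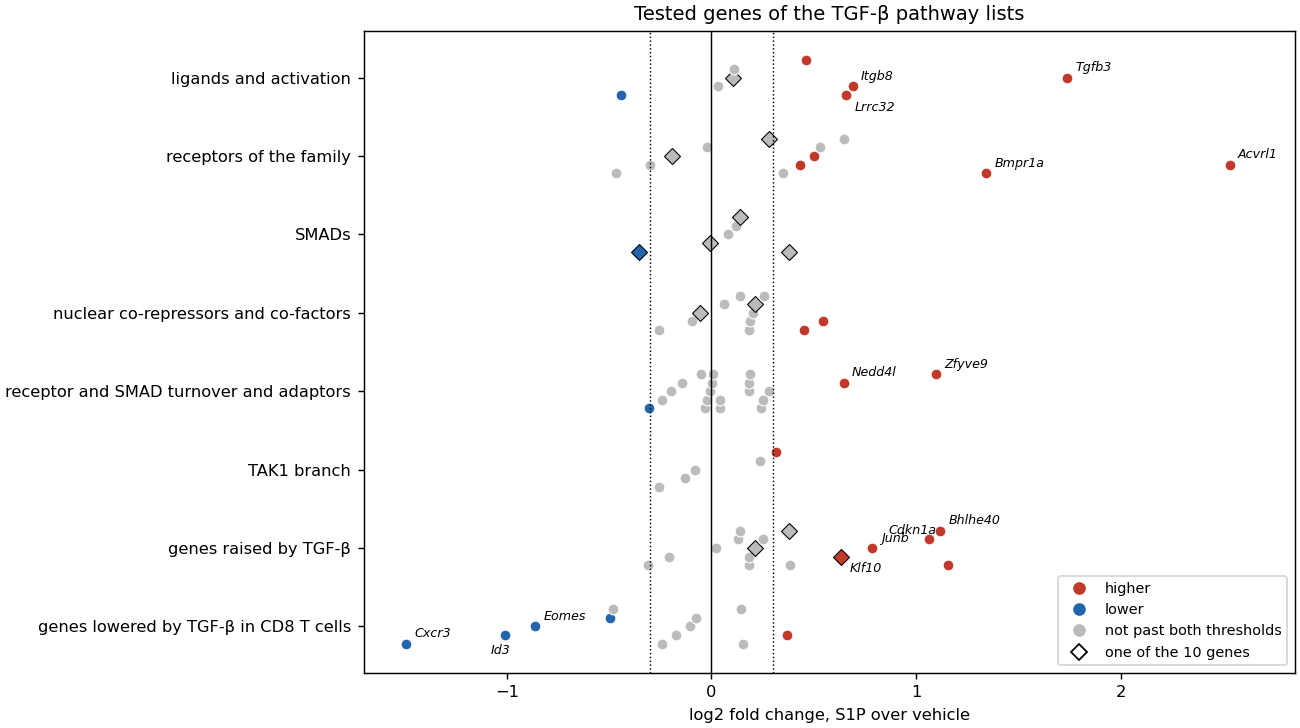
Log2 fold change of S1P over vehicle (horizontal axis) of every tested gene on the 8 pathway lists (rows; vertical position within a row has no meaning). Circles are list genes and diamonds the 10 genes described here, red past both thresholds and higher, blue lower, grey not past both, and dotted lines mark 0.3; the largest rise is Acvrl1 (2.53) and the largest fall Cxcr3 (-1.49).

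The remaining 2 of the 8 lists hold genes that TGF-β is known to raise or lower. Of 13 tested genes raised by TGF-β besides the 10 genes, 4 were higher after S1P and none lower (30.8%, against 23.1% of all genes in either direction and 12.7% higher), with a median log2 fold change of 0.19. Without S1P replicate 2, Rgs16 was lower (-0.303, adjusted p = 0.00535, against -0.207 and 0.108 with it). Among the 4 higher genes were the transcription factor genes Bhlhe40 (log2 fold change 1.12, edgeR adjusted p = 3.65e-05) and Junb (0.79, adjusted p = 7.64e-05), and the cell cycle inhibitor gene Cdkn1a (1.06, adjusted p = 3.65e-05). Cdkn1a is also a p53 target, and Junb and Bhlhe40 are also raised by T cell activation. Itgae, which encodes the residency integrin CD103 and is a TGF-β target in CD8+ T cells, had 16.4 ± 1.09 normalized counts in vehicle and 21.6 ± 3.36 in S1P, with every S1P sample above vehicle but not past the test (0.38, adjusted p = 0.315).

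Of 12 tested genes that TGF-β lowers in CD8+ T cells, 4 were lower and 1 was higher (41.7% in all, against 23.1% of all genes and 10.4% lower), with a median of -0.21. The chemokine receptor gene Cxcr3 fell from 211.5 ± 11.8 to 76.5 ± 16.4 normalized counts (log2 fold change -1.49, edgeR adjusted p = 8.76e-05), Id3 from 143.4 ± 12.2 to 70.1 ± 16.1 (-1.01, adjusted p = 0.00151) and Eomes from 958.2 ± 38.4 to 529.9 ± 81.9 (-0.86, adjusted p = 0.000162), and Ifng was the other gene that fell (-0.50, adjusted p = 0.00162). Id2 rose (0.37, adjusted p = 0.00396), and an opposite-strand gene covers 36.2% of its exon bases, while another gene on the same strand covers 25.9% of those of Ifng. The study picked all 5 of these genes on these samples, so that their directions are not independent evidence. The cytotoxic genes Gzmb (-0.10, adjusted p = 0.479) and Prf1 (-0.24, adjusted p = 0.0666) did not pass. The paper names Prf1 and Il2 too among the genes lowered by S1P in these samples. Here Prf1 was called in 0 of 17 fits, and Il2 (-0.48, edgeR adjusted p = 0.115) in 4. Cd8a and Cd8b1 were lower in the same samples, and their part in the falls was not tested. Of the 3 NK cell markers Eomes itself made up nearly all of the summed level (63.1 to 68.3 CPM in vehicle and 32.0 to 43.9 in S1P), and Ncr1 and Klrb1c were at most 1.05 CPM with overlapping groups. Without S1P replicate 2 the lists together held 16 higher and 6 lower genes, beside 1588 higher and 1252 lower over all genes.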

How the data were processed

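RNA of 6 cultures, 3 per group, was sequenced from strand-specific polyadenylated libraries read as pairs. The authors used Trim Galore for trimming, STAR for alignment and featureCounts for counting, and deposited whole-number counts per Ensembl gene, without normalization; the build is GRCm39 per the submitters' processing notes, and tool versions, annotation release, strand setting and treatment of multiply mapped reads are not given in the sources used here. Groups and replicate numbers came from the sample labels. Symbols (56323 of 56941 identifiers matched), positions, exon lengths and GC content were taken from GENCODE vM39. Counts were filtered with filterByExpr, scaled by TMM and tested with treatment as the only term in edgeR 4.0.16 (limma 3.58.1, R 4.3.3), quasi-likelihood, with Benjamini-Hochberg adjustment over 13299 genes, and calls used the study's thresholds (0.05 for the adjusted p, 0.3 for the size of the log2 fold change). Normalized counts are TMM-scaled, log2 CPM used a prior count of 2, and RPKM used the union of exons. The model was tested on simulated data. Alternatives were RLE, upper-quartile or total-count scaling, no filter, at least 10 counts in every sample or a mean count of 50, DESeq2 1.42.0, limma-voom, a replicate block, a GC offset (lowess, span 0.3), other thresholds and each sample left out. At 12048880 to 17384084 counts per sample, the SE of the 10 genes was 0.0688 to 0.164. All 10 genes are named; on the lists, up to 3 of the largest called rises and 3 of the largest called falls and 7 genes chosen by name are described, with a few others chosen after their values were seen. The members, lists and rules were chosen with earlier results of these data known. A gene on the lists that is not reported here by name remains in their counts.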

Additional observations from a re-analysis of the deposited data

How the results depend on the processing

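Klf10 kept its direction and both thresholds in all 17 fits (log2 fold change 0.581 to 0.669). Tgfb1, Tgfbr1, Smad2, Smad4, Ski and Skil were called in none of them, and the sign of Ski (-0.149 to 0.0225) and of Smad2 (-0.0568 to 0.0217) varied. With the GC offset, and with the replicate block and GC offset together, 3 members were higher and 0 lower. Over all genes 1612 and 1643 were higher and 1380 and 1429 lower in these 2 fits, against 1687 higher and 1384 lower in the main fit. Under these Smad3 was -0.294 and -0.292, Smad7 0.449 (adjusted p = 0.0488) and 0.430 (0.0289), and Tgfbr2 0.307 (0.0171) and 0.303 (0.00816), adjusted p from edgeR throughout. Upper-quartile factors gave 2 higher members, Tgfbr2 at 0.307 (0.0228), with 1838 higher and 1206 lower genes in all. Without a fold threshold 3 members were higher and 1 lower, with 1949 higher and 1839 lower genes in all. At a log2 fold change of at least 1 there were 0 higher and 0 lower members and 7 higher and 2 lower list genes. Over all genes 383 were then higher and 82 lower. Leaving out each replicate in turn gave 1 to 2 higher members, with Tgfbr2 at 0.196 to 0.361 (called without vehicle replicate 1 or S1P replicate 2), Smad7 at 0.176 to 0.537 (called without S1P replicate 3) and Smad3 called each time. Over all genes these fits gave 1158 to 1736 higher and 961 to 1492 lower. Tgfbrap1 and Tab2 lost their calls in several fits, as did Itgb8, whose values are given above. Carriers minus inhibitors was -0.173 without Klf10. With the longest transcript as length, the vehicle ranks became Skil 2, Ski 3, Smad4 4, Tgfbr2 5, Smad2 7 and Smad3 8. The deviations of same-numbered samples correlated at 0.12, -0.00598 and 0.0483, and those of differently numbered samples at -0.1 to 0.0496. With 3 samples per group such values cannot decide whether the numbers mark pairs. The main fit did not take them as pairs, and with the replicate block no member call changed (1697 genes higher and 1423 lower). The median log2 fold change of all genes stayed within -0.0145 to 0.0358 except without a filter on low counts (0.159), where many more low genes entered. The cause of these shifts was not tested. Counting error is largest, relative to the level, for the low list genes, and Smad7 had the largest spread between S1P samples of the 10 genes.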
